A study of Mus musculus with 4 samples.

Results

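TLE3 binding was examined at 8 mouse genes of heat production: the core thermogenic genes Ucp1, Cidea, Dio2 and Elovl3, the coactivator genes Ppargc1a and Ppargc1b, and the orphan receptor genes Esrra and Esrrg. The genes were chosen by name, with earlier results of these data known. Every region for which the deposited table names a member as the nearest gene was taken, at any distance, and regions within 50 kb of a start site were also treated apart. This gave 60 of the 69599 regions in the joined set of the 3 lists, and 30 of them lay within 50 kb. The 8 genes are among 14265 that the joined set names.

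Each of the 4 libraries came from stromal-vascular cells of NMRI males aged 4 to 5 weeks, with fat pooled from 10 to 15 mice. Insulin at 30 nM and the PPARγ activator rosiglitazone at 1 µM turned the cells into adipocytes, which were harvested 8 days after plating and fixed with disuccinimidyl glutarate and formaldehyde. Cultures differentiated beyond 50% were used. The groups were TLE3 chromatin immunoprecipitation in epididymal white adipocytes (eWAT), in inguinal white adipocytes (iWAT) and in brown adipocytes (BAT, from pooled interscapular, cervical and axillary fat), and an input without antibody from iWAT adipocytes, each with 1 library. The labels give no genetic change in any group, and all 4 groups received rosiglitazone, so they do not show fat that was never exposed to the drug. No expression data were analysed here, so the depot identity of the cultures was not checked against markers. With 1 library per depot, depot and library cannot be told apart, and no difference below has a replicate check.

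TLE3 is a Groucho-family corepressor that has no DNA-binding domain of its own and reaches chromatin through DNA-bound factors. In brown and beige fat, noradrenaline acts through cyclic AMP to raise heat production, and UCP1 lets protons leak across the inner mitochondrial membrane so that fuel oxidation yields heat. PGC-1α and PGC-1β, the products of Ppargc1a and Ppargc1b, bind nuclear receptors and raise transcription of mitochondrial genes. ERRα and ERRγ, the products of Esrra and Esrrg, are receptors that work with PGC-1 on those genes. The title of the series concerns the mitochondrial program of beige adipocytes after loss of TLE3, and the libraries here show where TLE3 lay in cells of each depot.

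Values are scaled reads per region, on mm9 coordinates. In each library the values were whole multiples of a single step, which was read from the values as 1 read times the authors' scaling factor. That step was 0.883 for eWAT, 0.526 for iWAT, 2.77 for BAT and 0.651 for the input. BAT was thus the shallowest library, and a BAT value of 0 allows up to 8.30 scaled reads. Every region listed for a depot had 15 scaled reads or more in that library and 10 or more times the value of the input. BAT values were also lower over the strong regions as a whole. Over the strongest 25% of regions the median log2 ratio was −1.39 between BAT and eWAT, −1.46 between BAT and iWAT and −0.12 between iWAT and eWAT. Log2 ratios below are given relative to these medians unless the authors' scaling is named, with 95% counting intervals. Relative to them, equal values in BAT and eWAT count as 2.63-fold higher in BAT, so ratios in the authors' scaling are given beside the main BAT ratios. A region or gene was called when its ratio passed 2-fold and its whole interval lay on that side of no difference.

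All 8 genes had a region listed in eWAT within 50 kb, and 6 had one in iWAT and 6 in BAT. Over the genes that the joined set names, the shares were 83.4% in eWAT, 77.5% in iWAT and 39.3% in BAT. Over RefSeq protein-coding genes they were 44.7%, 41.2% and 20.8%. Esrra and Esrrg were the genes without an iWAT region, and Elovl3 and Esrra those without a BAT region. When each list was held to the size of the BAT list, 3 members had an eWAT region and 3 an iWAT region, beside 39.6% and 35.7% of the genes that the joined set names. Of the 60 regions at all distances, 47 were listed in eWAT, 36 in iWAT and 26 in BAT. Over all regions, 73.3%, 72.5% and 21.6% were listed. Of the 60, 17 were listed in all 3 depots, where 15.9% of all regions were, and 7 in BAT alone, where 3.14% were. Regions of 1 gene share a locus and are not independent of each other.

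**Figure D1:**
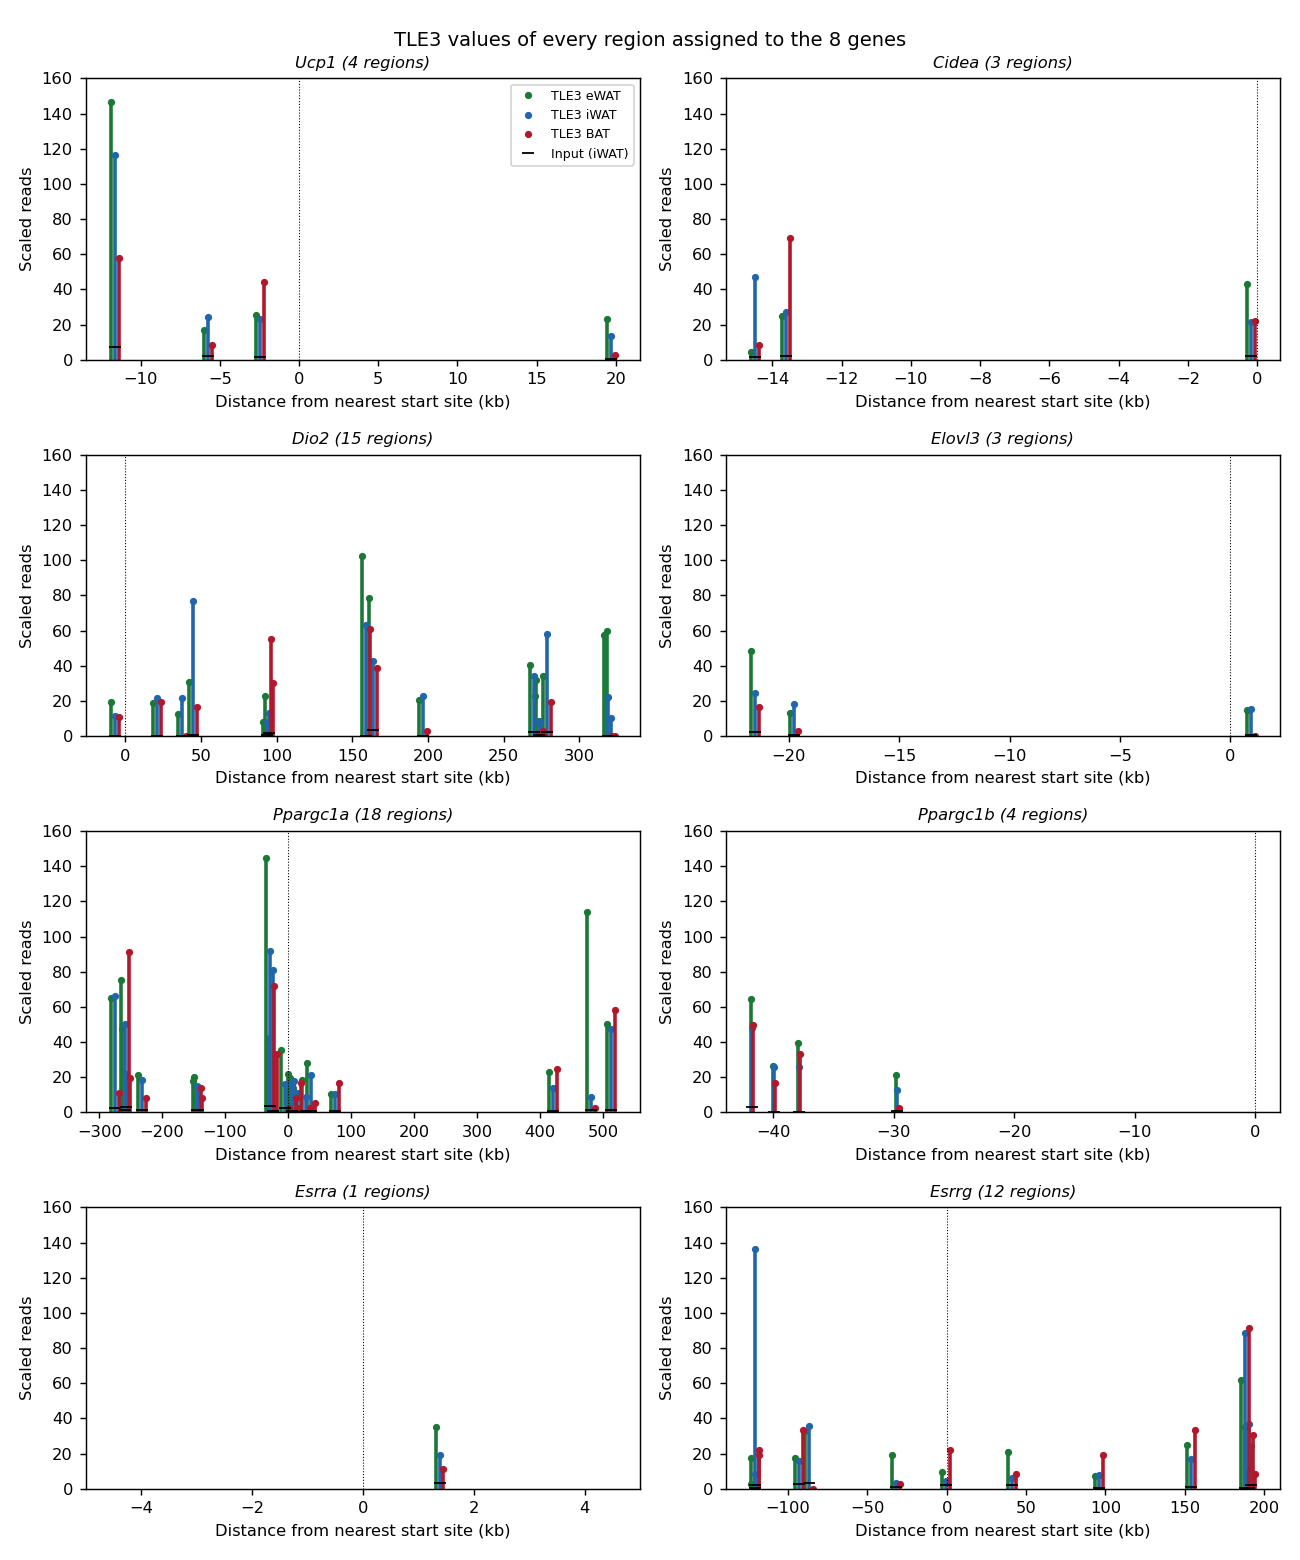
Scaled reads of all 60 regions against distance from the nearest start site (kb) for each of the 8 genes, with 1 stem per TLE3 library drawn side by side and the iWAT input as a dash. At Ucp1 the tallest stems stand 11.7 kb upstream, and the BAT stem is the tallest 2.46 kb upstream, at 44.2.

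Ucp1 encodes the uncoupling protein that defines brown fat. It had 4 regions, all intergenic and within 19.7 kb of the start site. The strongest lay 11.7 kb upstream (chr8:85802477-85802707) with values of 147 in eWAT, 117 in iWAT and 58.1 in BAT over an input of 7.16. It was among the top 2.13% of all regions in eWAT, the top 3.85% in iWAT and the top 4.02% in BAT. Its values thus ranked high in every depot, but its input was also the highest of the 60 regions, whose median was 1.30. The input value put the limit for listing at 71.6, and the region was therefore not listed in BAT.

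The Ucp1 region 2.46 kb upstream (chr8:85811676-85811906) had 25.6 in eWAT, 23.1 in iWAT and 44.2 in BAT over an input of 1.30. The classical distal enhancer of Ucp1, which answers to PPAR receptors and cyclic AMP, is known to lie in this stretch upstream of the gene. This was the Ucp1 region listed in all 3 depots, and BAT had the highest value, on 16 reads. The log2 ratio was 2.18 (1.20 to 3.11) against eWAT and 2.40 (1.47 to 3.25) against iWAT. In the authors' scaling the ratios were 0.79 (−0.19 to 1.72) and 0.94 (0.01 to 1.79), so neither was called there. The region ranked in the top 6.92% of all regions in BAT, against the top 52.0% in eWAT and the top 57.9% in iWAT. The region 5.76 kb upstream was listed in iWAT alone with 24.2, beside 16.8 in eWAT and 8.30 in BAT. The downstream region at 19.7 kb was listed in eWAT alone with 23.0, beside 13.7 and 2.77.

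Cidea encodes a lipid droplet protein that is abundant in brown fat. Its 3 regions lay on chromosome 18. The promoter region, 177 bp upstream (chr18:67502926-67503156), had 43.3 in eWAT, 21.6 in iWAT and 22.1 in BAT over an input of 1.95 and was listed in all 3 depots. Here eWAT was highest. The log2 ratio of iWAT over eWAT was −0.88 (−1.52 to −0.26), short of 2-fold, but −1.01 (−1.64 to −0.38) and called in the authors' scaling, while BAT was called higher than iWAT, with an interval of 0.20 to 2.61, against a ratio of 0.04 in the authors' scaling. The region 13.6 kb upstream (chr18:67489504-67489734) had 24.7, 27.3 and 69.1, with an input of 1.95, and was also listed in all 3. Here BAT stood above both white libraries, on 25 reads. The log2 ratio was 2.88 (2.04 to 3.71) against eWAT and 2.80 (2.05 to 3.52) against iWAT, and both were called in the authors' scaling too, at 1.48 and 1.34. A further region 14.5 kb upstream (chr18:67488594-67488824) had 4.42 in eWAT, 47.3 in iWAT and 8.30 in BAT. There iWAT was highest, with a log2 ratio of 3.54 (2.27 to 5.20) for iWAT over eWAT. BAT, on 3 reads, was called lower than iWAT in the authors' scaling but not relative to the median ratio. The table places both distal regions in the first intron of a noncoding transcript.

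Dio2 encodes the deiodinase that makes active thyroid hormone inside the cell. It had 15 regions, all annotated as intergenic, and 4 lay within 50 kb. The strongest of these, 44.6 kb downstream of the start site (chr12:91932730-91932960), had 30.9 in eWAT, 76.7 in iWAT and 16.6 in BAT, and it was listed in all 3. Its log2 ratio for iWAT over eWAT was 1.43 (0.89 to 2.01). The region at 20.6 kb (chr12:91956736-91956966) had 18.5, 21.6 and 19.4, and in the authors' scaling the 3 libraries were close to each other. Relative to the median ratios BAT stood above both white libraries there, without a call. Nearest to the start site, 7.13 kb upstream, a region listed in eWAT alone had 19.4, 11.6 and 11.1. The region at 37.2 kb, listed in iWAT alone, had 12.4, 21.6 and 0.

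Farther from Dio2, the region at 93.4 kb (chr12:91883934-91884164) was listed in BAT alone, with 7.95 in eWAT, 7.88 in iWAT and 55.3 in BAT over an input of 0.65. The log2 ratio was 4.19 (2.99 to 5.51) against eWAT and 4.27 (3.23 to 5.34) against iWAT. In the authors' scaling it was 2.80 (1.60 to 4.12) and 2.81 (1.77 to 3.88), so BAT was higher under both scalings. The region entered the set only through its high BAT value, which favours such ratios. Its neighbour at 94.9 kb had 23.0, 13.1 and 30.4 and was listed in eWAT and BAT. The strongest Dio2 region lay at 159 kb (chr12:91818462-91818692) with 102 in eWAT, 63.1 in iWAT and 60.8 in BAT over an input of 0. Close to it, a region at 164 kb had 78.6, 42.6 and 38.7. Both of these were listed in every depot.

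The Dio2 region at 196 kb had 20.3 in eWAT, 22.6 in iWAT and 2.77 in BAT, which is 1 read. Of the 6 regions from 270.1 kb to 321 kb, 5 had at most 1 read in BAT. The region at 319 kb had 57.4, 22.1 and 0 (eWAT, iWAT, BAT), and that at 321 kb had 60.05, 10.5 and 0. Against eWAT, the log2 ratio of iWAT was −1.26 (−1.85 to −0.68) and −2.39 (−3.19 to −1.66), and that of BAT was at most −1.40 and −1.46. The regions at 273 kb and 274 kb ran the same way between the white libraries, with 23.0 and 31.8 in eWAT and 8.41 and 7.36 in iWAT. At 279 kb iWAT was highest, with 58.3 against 34.4 in eWAT and 19.4 in BAT. These regions lie toward Nrxn3, the next protein-coding gene on that side in RefSeq of GRCm38.p6, and Dio2 is named only because its start site is the nearest.

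Elovl3 encodes an elongase of very long chain fatty acids that is strongly induced in cold-exposed brown fat. Its 3 regions were all weak in BAT, with 7 reads in total. The strongest, 21.5 kb upstream (chr19:46184726-46184956), had 48.6 in eWAT, 24.7 in iWAT and 16.6 in BAT over an input of 2.60 and was listed in eWAT alone. The intronic region nearest to the start site, 932 bp downstream (chr19:46207206-46207436), was listed in both white depots just above the limit of 15, with 15.0 in eWAT, 15.2 in iWAT and 0 in BAT. The remaining region, 19.8 kb upstream, had 13.2, 18.4 and 2.77 and was listed in iWAT.

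Ppargc1a encodes PGC-1α, the coactivator that is itself induced by cold and cyclic AMP. It had 18 regions, 8 of them within 50 kb of a start site. The pair upstream of the gene stood out among these. The region at 28.2 kb (chr5:51987000-51987230) had 145 in eWAT, 92.0 in iWAT and 71.9 in BAT over an input of 3.90, and was in the top 2.22%, 7.66% and 2.56% of all regions. The region at 23.9 kb (chr5:51982764-51982994) had 42.4, 80.9 and 33.2, with an input of 0.65. It ranked the depots differently, with iWAT highest and a log2 ratio of 1.06 (0.58 to 1.55) for iWAT over eWAT. That ratio was 0.93 in the authors' scaling and was not called there. Both regions were listed in all 3 depots.

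The other regions of Ppargc1a within 50 kb were weaker. The region 5.21 kb upstream had 35.3 in eWAT, 16.3 in iWAT and 2.77 in BAT, and the 5 intronic regions up to 36.1 kb downstream ran from 14.1 to 28.3 in eWAT, from 8.93 to 21.6 in iWAT and from 2.77 to 16.6 in BAT. The nearest of these, at 5.64 kb, had 22.1, 16.3 and 8.30. Among the intronic regions, those at 14.7 kb and 74.3 kb were listed in BAT alone, each with 16.6, or 6 reads, the fewest that a listed BAT region had. Their eWAT values were 14.1 and 10.6 and their iWAT values 11.0 and 10.5, all under the limit of 15 for the white lists.

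The highest BAT value at Ppargc1a lay 259 kb upstream (chr5:52217562-52217792), with 75.1 in eWAT, 50.45 in iWAT and 91.25 in BAT over an input of 1.30. It was in the top 1.47% of all regions in BAT. The log2 ratio was 1.67 (1.05 to 2.27) against eWAT and 2.32 (1.70 to 2.90) against iWAT, but 0.28 (−0.34 to 0.88) and 0.86 (0.24 to 1.44) in the authors' scaling. A region at 275 kb had 65.3, 66.2 and 11.1 and was listed in both white depots. Downstream, 481 kb from the start site (chr5:51464039-51464269), a region had 114 in eWAT, 8.93 in iWAT and 2.77 in BAT over an input of 1.30. This region had the lowest iWAT over eWAT ratio of the 60, at −3.55 (−4.37 to −2.82) on the log2 scale, and BAT over eWAT was −3.97 (−9.29 to −1.47) on 1 BAT read. Its neighbours at 421 kb and 513 kb were listed in BAT, with 23.0 and 50.3 in eWAT, 13.7 and 47.3 in iWAT, and 24.9 and 58.1 in BAT. At this distance the nearest-gene rule says little, and Adgra3 is the next protein-coding gene on that side. The upstream regions are annotated as intergenic on mm9, while the RefSeq model of Ppargc1a on GRCm38.p6 spans 661605 bp.

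Ppargc1b encodes PGC-1β, which keeps basal mitochondrial gene expression. Its 4 regions stood in a row from 29.7 kb to 41.8 kb upstream on chromosome 18, all intergenic. The region at 41.8 kb (chr18:61601746-61601976) had 64.5 in eWAT, 47.8 in iWAT and 49.8 in BAT over an input of 3.25. Those at 39.9 kb and 37.8 kb had 26.5 and 39.7 in eWAT, 25.75 in both cases in iWAT, 16.6 and 33.2 in BAT, and 0 in the input. All 3 were listed in every depot, and in the authors' scaling their BAT values were close to the white ones. The log2 ratio of BAT over eWAT was 1.02 (0.19 to 1.78) at 41.8 kb and 1.13 (0.08 to 2.08) at 37.8 kb, against −0.37 and −0.26 in the authors' scaling, where the direction turned. The nearest region, at 29.7 kb, had 21.2, 12.6 and 2.77 and was not listed in BAT.

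Esrra, the gene of ERRα, had a single region, in its first intron 1385 bp from the start site (chr19:6994798-6995028). It had 35.3 in eWAT, 19.4 in iWAT and 11.1 in BAT over an input of 3.25. It was listed in eWAT alone, and the iWAT value missed the limit of 32.5 set by the input. The BAT value rested on 4 reads.

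Esrrg, the gene of ERRγ, which is high in oxidative tissues, had 12 regions, assigned in the deposited table to 2 transcript start sites, and 7 of them were listed in BAT. A region 259 bp upstream of the upstream start site (chr1:189432511-189432741) was listed in BAT alone, with 9.71 in eWAT, 4.20 in iWAT and 22.1 in BAT over an input of 1.95. Its sequence is shown in part, as a promoter region where BAT was highest, from RefSeq on GRCm38.p6. The window chr1:187608756-187609055, on the plus strand, was matched to this start site by the spacing of 388821 bp between these start sites, which is the same on both builds. Capitals mark the 107 bases, from 250 to 144 bases upstream of the start site, that the TLE3 region covers.

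Esrrg promoter window: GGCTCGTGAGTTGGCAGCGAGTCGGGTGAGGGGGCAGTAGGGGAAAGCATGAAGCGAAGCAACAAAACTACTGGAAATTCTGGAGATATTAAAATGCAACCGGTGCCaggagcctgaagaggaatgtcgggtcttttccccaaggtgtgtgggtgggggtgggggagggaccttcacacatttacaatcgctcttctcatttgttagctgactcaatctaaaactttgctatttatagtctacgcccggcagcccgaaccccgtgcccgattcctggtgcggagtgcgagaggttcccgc

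On both strands, the window held the letters TTGGCA, known from sites of the NFI factors, once, at position −240 within the capitals. Of 32851 promoter windows of this length, 14.1% held these letters. The letters TCAAGGTCA of the ERR element, which contains the nuclear receptor letters AGGTCA, were not in it, and neither were AGGTCA, the C/EBP letters TTGCNNAA, the cyclic AMP element TGACGTCA and the E-box CAGCTG. Their shares over all windows were 0.423%, 16.3%, 10.8%, 1.79% and 16.3% in that order. The log2 ratio of BAT at the promoter region of Esrrg was 2.58 (1.06 to 4.03) against eWAT and 3.86 (2.25 to 5.47) against iWAT. In the authors' scaling the ratio against iWAT, 2.40 (0.78 to 4.01), was still called, and that against eWAT, 1.19 (−0.33 to 2.64), was not. The BAT value rested on 8 reads, and the region entered the set through BAT alone.

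The strongest Esrrg region overall lay in an intron at 188 kb (chr1:189620834-189621064), with 61.8 in eWAT, 88.8 in iWAT and 91.25 in BAT over an input of 0.65. Also listed in all 3 depots were those at 154 kb with 24.7, 16.8 and 33.2 and at 190.5 kb with 35.3, 36.8 and 30.4. The regions listed in BAT alone, beside the promoter, had 22.1 in BAT at 120.5 kb upstream, 33.2 at 92.8 kb upstream of the downstream start site and 19.4 at 96.1 kb downstream. Their eWAT values were 2.65, 17.7 and 7.06 and their iWAT values 8.41, 15.8 and 7.88. In contrast, the region at 121 kb upstream (chr1:189311848-189312078) was an iWAT site with 17.7 in eWAT, 136 in iWAT and 19.4 in BAT, and a log2 ratio of 3.07 (2.41 to 3.80) for iWAT over eWAT. The BAT value there was 19.36, under the limit of 19.5 set by the input. Regions 32.2 kb upstream and 41.1 kb downstream were listed in eWAT alone, with 19.4 and 21.2 in eWAT, 3.15 and 6.31 in iWAT, and 2.77 and 8.30 in BAT.

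Summed within 50 kb, Ppargc1a had the highest TLE3 signal of the 8 genes, with sums of 325 in eWAT, 265 in iWAT and 144 in BAT over 8 regions. Ucp1 followed with 212, 178 and 113 over 4 regions, and Ppargc1b with 152, 112 and 102 over 4. Per region the means of Ucp1 were higher than those of Ppargc1a, at 53.0 against 40.6 in eWAT and 28.3 against 18.0 in BAT. Cidea had 72.4, 96.2 and 99.5 over 3 regions, Dio2 81.2, 131 and 47.0 over 4, and Elovl3 76.8, 58.3 and 19.4 over 3. Esrrg had 50.3, 13.7 and 33.2 over 3 regions and Esrra 35.3, 19.4 and 11.1 at its single region. In BAT, Ppargc1a was in the top 6.16% of genes with a region, Ucp1 in the top 9.72%, Ppargc1b in the top 11.9% and Cidea in the top 12.3%. The counting intervals of neighbours in the BAT order overlapped throughout, from 144 (107 to 189) for Ppargc1a to 11.1 (3.01 to 28.3) for Esrra. The input summed to between 0.65 and 11.1.

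**Figure D2:**
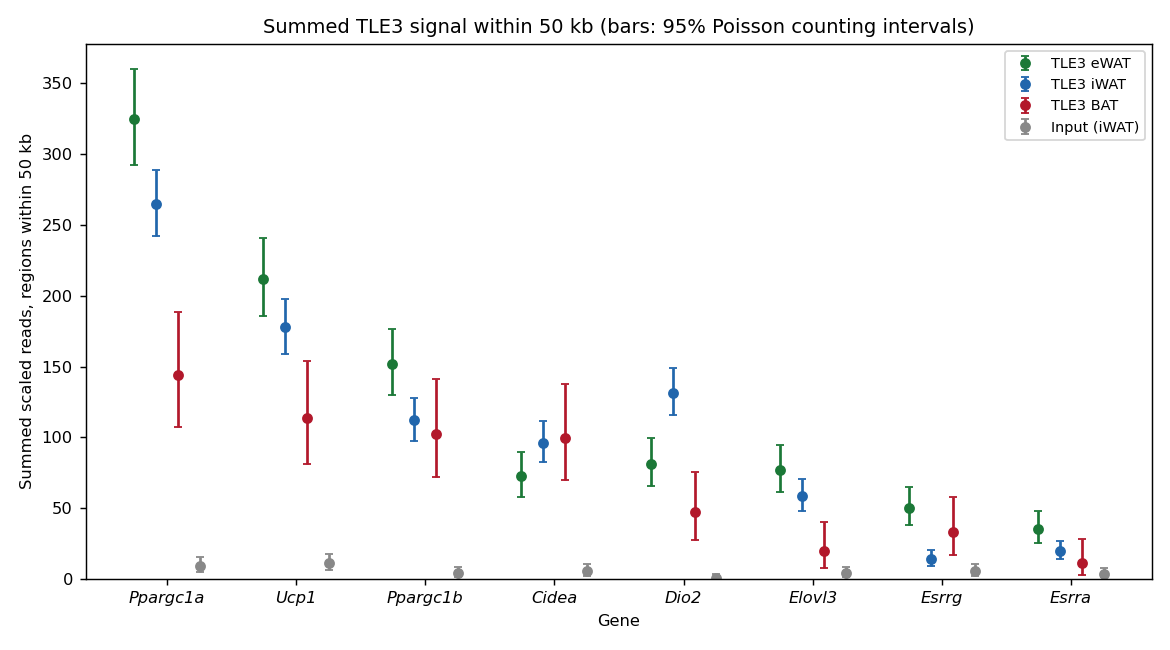
Summed scaled reads of regions within 50 kb (y axis) for each of the 8 genes (x axis), by library, with 95% Poisson counting intervals as bars. Cidea is the gene whose BAT sum, 99.5, is above both white sums, with an interval that overlaps theirs, and the intervals of Esrrg in iWAT and of Elovl3 and Esrra in BAT overlap those of the input.

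Between the summed values of BAT and eWAT, Cidea was called higher in BAT, with a log2 ratio of 1.85 (1.24 to 2.43), and none was called lower. Over genes with a region within 50 kb, 9.42% were called higher and 12.6% lower. Against iWAT, Cidea (1.51, 0.95 to 2.03), Ppargc1b (1.33, 0.79 to 1.84) and Esrrg (2.74, 1.62 to 3.78) were called higher in BAT and none lower, where 12.6% and 9.26% of genes were. With the authors' scaling Cidea had 0.46 (−0.15 to 1.04) and 0.05 (−0.51 to 0.57) and was called in neither contrast. Ppargc1a, Esrra and Elovl3 were then called lower in BAT than in eWAT, with −1.18, −1.68 and −1.99, and Dio2 and Elovl3 lower than in iWAT, with −1.48 and −1.59. In that scaling 64.4% of all genes were called lower than in eWAT and 2.11% higher, and 58% lower than in iWAT and 2.12% higher. Esrrg was higher than in iWAT there too, at 1.28 (0.16 to 2.32). None of its 3 regions within 50 kb was listed in iWAT, so all entered the set through eWAT or BAT. Of them, the promoter region was listed in BAT alone. This way of entry favours low iWAT values at Esrrg. Ucp1 had 0.49 (−0.02 to 0.97) against eWAT and 0.81 (0.31 to 1.29) against iWAT, and −0.90 and −0.65 in the authors' scaling.

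Region by region, 5 of the 30 regions within 50 kb were called higher in BAT than in eWAT and 0 lower, beside 10.8% and 6.86% of all regions. Against iWAT 8 were higher and 0 lower, beside 11.8% and 6.76%. At all distances 18 of the 60 (30%) were higher than in eWAT and 3 lower, and 22 (36.7%) were higher than in iWAT and 1 lower. Esrrg gave 8 of the 18 and 7 of the 22, and Ppargc1a gave 4 and 6. The median log2 ratio of the 60 regions was 0.52 against eWAT and 1.00 against iWAT, and that of all regions was 0.04 and 0.05. A region enters the set through the library where it is high, so the regions listed in BAT alone had to have high BAT values. Both BAT comparisons share the BAT library.

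In the authors' scaling the split turned. Within 50 kb, 1 region was then higher and 11 lower in BAT than in eWAT, and 2 were higher and 8 lower than in iWAT. Of the 60 regions, 3 were then higher and 22 lower in BAT than in eWAT, beside 3.07% and 47.9% of all regions, and 4 were higher and 15 lower than in iWAT, beside 2.91% and 49.8%. The regions higher than eWAT under both scalings were those of Cidea at 13.6 kb, Dio2 at 93.4 kb and Esrrg at 120.5 kb upstream. The last of these and the Dio2 region were listed in BAT alone, so they entered the set only through a high BAT value, whereas the Cidea region was listed in all 3 depots. Against iWAT they were the same Cidea and Dio2 regions, the Dio2 region at 94.9 kb, listed in eWAT too, and the Esrrg promoter, listed in BAT alone. The BAT region of Ucp1 at 2.46 kb was not among them.

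**Figure D3:**
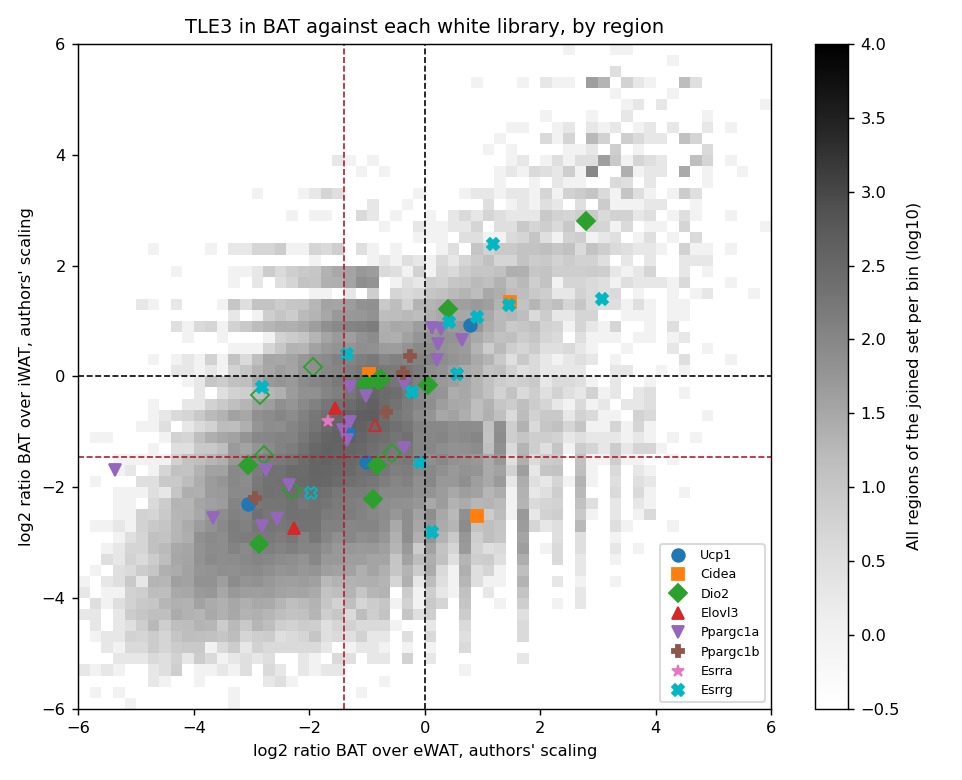
Log2 ratio of BAT over eWAT (x axis) and of BAT over iWAT (y axis) in the authors' scaling for the members' regions, coloured by gene, over the density of all regions in grey. Open symbols have 0 BAT reads and are drawn at the bound of 3 reads, black dashed lines mark equal values, and red dashed lines mark the median ratios of −1.39 and −1.46; regions of Cidea, Dio2 and Esrrg lie farthest to the upper right.

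Between the white depots the members varied in both directions. Within 50 kb, 3 regions were higher in iWAT than in eWAT and 2 lower, and at all distances 5 and 7 of 60, where 23.9% and 16.6% of all regions were. With the authors' scaling 2 were higher and 5 lower within 50 kb, and 4 and 11 at all distances, beside 21.7% and 19% of all regions. The Ppargc1a region at 23.9 kb was then no longer called, and the Cidea promoter and 3 regions of Ppargc1a were called lower. Relative to the median ratio, the iWAT side held the Cidea region at 14.5 kb, the Dio2 region at 44.6 kb, the Ppargc1a region at 23.9 kb and the Esrrg regions at 121 kb upstream and 192 kb downstream, the last with 24.2 against 8.83. The eWAT side held 4 Dio2 regions between 273 kb and 321 kb, the Ppargc1a region at 481 kb and the Esrrg regions at 32.2 kb and 41.1 kb. Among summed values within 50 kb, Esrrg was called lower in iWAT, with a log2 ratio of −1.76 (−2.49 to −1.07), beside 12.4% of genes lower and 12% higher. None of these Esrrg regions was listed in iWAT, which favours low iWAT values. Over all 12 Esrrg regions the ratio turned to 0.69 (0.49 to 0.89), which include the region at 121 kb. Ucp1 and Ppargc1a differed little between the white libraries, with −0.13 (−0.38 to 0.11) and −0.17 (−0.37 to 0.02). Regions near macrophage marker genes were also lower in iWAT, for 3 of 4 genes (Adgre1, Itgam and Lyz2 with 42.4, 70.6 and 38.9 in eWAT and 7.36, 9.99 and 7.36 in iWAT). Their part in the results at the 8 genes was not tested. The median log2 ratio of iWAT over eWAT was −2.34 for macrophage, −0.50 for mesothelial, −0.32 for adipocyte, −0.28 for skeletal muscle, 0.13 for endothelial and 0.62 for fibroblast and preadipocyte markers. For BAT over eWAT the medians in the same order were −0.90, −0.17, 0.10, −0.17, 0.37 and 0.02, beside −0.13 over all genes. For BAT over iWAT they were 1.12, 0.24, 0.66, 0.30, 0.04 and −0.01, beside 0.05. In the authors' scaling those against eWAT were −2.29, −1.56, −1.30, −1.56, −1.02 and −1.37, beside −1.52. Those against iWAT were −0.34, −1.23, −0.80, −1.16, −1.42 and −1.47, beside −1.41. Adgre1, Lyz2 and the muscle gene Myh1 had 0 in BAT, set to the floor of 3 reads. The macrophage and muscle medians of BAT are therefore upper bounds. Of the 4 macrophage marker genes with a region, 4 had one listed in eWAT, 1 in iWAT and 0 in BAT, and 1 was called lower in BAT than in eWAT.

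**Figure D4:**
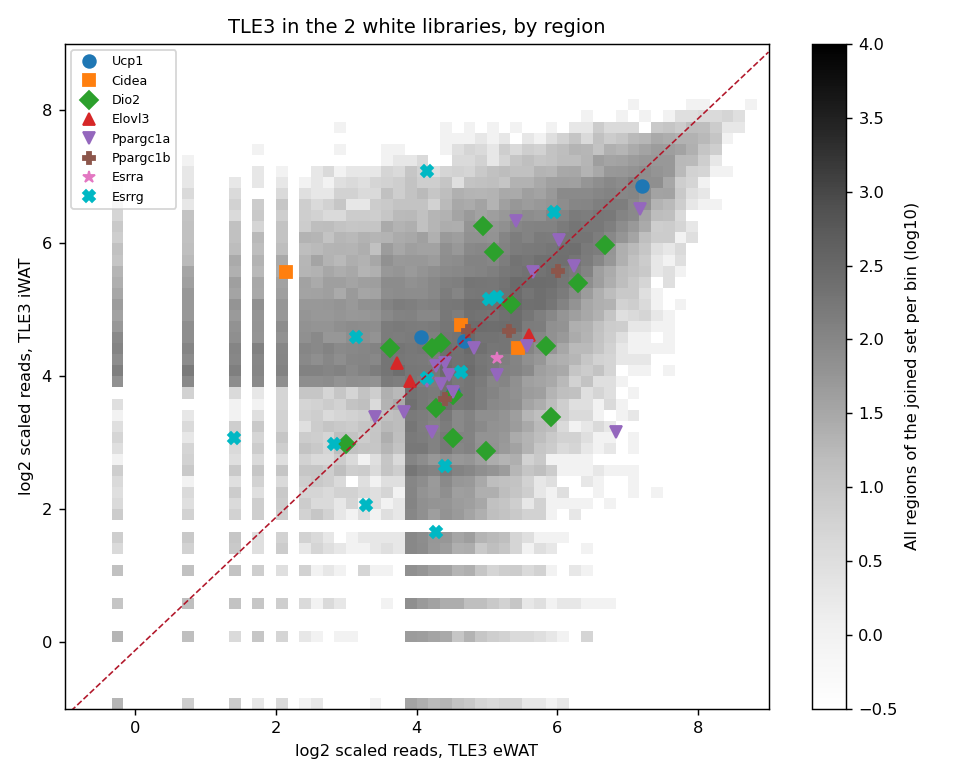
Log2 scaled reads in iWAT (y axis) against eWAT (x axis) for the 60 regions, coloured by gene, over the density of all regions in grey, with the median ratio of −0.12 as a dashed line. The Ppargc1a region with 114 in eWAT and 8.93 in iWAT stands lowest at the right, and the Esrrg region with 17.7 and 136 stands at the top.

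Neighbouring regions of a gene could carry different depot patterns. At Esrrg, the regions 121 kb and 120.5 kb upstream start 450 bp apart, and the first had 136 in iWAT and 19.4 in BAT while the second had 8.41 and 22.1. At Cidea, 910 bp separate the starts of the region with 47.3 in iWAT and 8.30 in BAT from the region with 27.3 and 69.1. At Ppargc1a, the regions 259 kb and 258 kb upstream start 592 bp apart and had 91.25 and 19.4 in BAT, beside 75.1 and 47.7 in eWAT. The Dio2 regions at 93.4 kb and 94.9 kb both had their highest value in BAT.

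The input background was low at the members. It ranged from 0 to 7.16 with a median of 1.30, the same median as over all regions. With an input of 0 set to 3 reads, 22 of the 30 regions within 50 kb had at least 10 times the input in eWAT, 21 in iWAT and 10 in BAT. Listing itself required 10 times the input, so these counts follow largely from list membership. Of the 30 regions, 24 were listed in eWAT, 19 in iWAT and 12 in BAT. Over all regions, 73.3%, 72.5% and 21.6% were listed. The input came from iWAT, so eWAT and BAT had none of their own.

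Of 41 other genes of the thermogenic program, 31 had a region within 50 kb. A region was listed in eWAT for 27, in iWAT for 25 and in BAT for 17. The highest sums were at Adrb1, a β-adrenergic receptor gene, with 336, 432 and 260 (eWAT, iWAT, BAT), at Pdk4, a kinase that restrains pyruvate oxidation, with 367, 334 and 218, and at Ebf2, a factor of brown precursors, with 260.5, 360.0 and 235. BAT over eWAT was highest at Kcnk3, a potassium channel gene, with 0, 1.05 and 33.2, at Zic1, a marker of classical brown fat, with 3.53, 1.05 and 27.7, and at S100b, with 0.88, 23.7 and 5.53. Among genes with a BAT read it was lowest at Slc6a8, the creatine transporter gene, at Slc27a2, a fatty acid transport and activation gene, and at Ckmt2, a mitochondrial creatine kinase gene, whose BAT values of 2.77, 2.77 and 5.54 rest on 1 or 2 reads. Zfp516, a factor gene of brown fat, had 38.9, 24.7 and 0, and its ratio is known only as at most −0.84. In all, 9 of the 31 were called higher and 2 lower in BAT than in eWAT, and 7 and 0 than in iWAT, beside the 9.42% and 12.6%, and 12.6% and 9.26%, of all genes given above. Under the authors' scaling 2 were higher and 18 lower than in eWAT, beside 2.11% and 64.4% of all genes in that scaling. Against iWAT 3 were then higher and 13 lower, beside 2.12% and 58%. Of the 9, Adrb1, Ebf2 and Bmp8b turned direction there, with −0.37, −0.15 and −0.03. Their median log2 ratio was 0.10 and 0.54, where the 8 members had 0.55 and 0.73 and all genes −0.13 and 0.05. In the authors' scaling the medians against eWAT were −1.29, −0.85 and −1.52 in that order. The ratios of Kcnk3 and Zic1 were at least 5.04 and 4.36 (2.57 to 6.49), but both genes had regions listed in BAT alone, which enter the set only where BAT is high. That of S100b, 4.04 (−0.22 to 9.92), was not called.

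Among 26 partners and targets of PGC-1 and the ERR receptors, 18 had a region within 50 kb, listed in eWAT for 16, in iWAT for 15 and in BAT for 10. Vegfa, an angiogenic factor gene, had 629, 370.0 and 301, Mef2c, a muscle and endothelial factor gene, had 201, 285 and 83.0, and Idh3a, a citric acid cycle enzyme gene, had 147, 140 and 85.7. The largest BAT over eWAT ratios were at Sirt1, a deacetylase gene, listed in BAT alone, with 2.65, 2.63 and 19.4, at Atf2, a cyclic AMP-responsive factor gene, with 6.18, 18.4 and 19.4, and at Acadm, a fatty acid oxidation gene, with 21.2, 13.7 and 24.9. The smallest were at Ncor1, a corepressor gene, with 51.2, 33.6 and 5.53, at Sdhb, a succinate dehydrogenase gene, with 102, 62.0 and 13.8, and at Creb1, with 116, 156 and 27.7. Of the 18, 4 were called higher and 1 lower in BAT than in eWAT, beside 9.42% and 12.6% of all genes. Against iWAT 7 were higher and 1 lower, beside 12.6% and 9.26%. The medians were 0.07 and 0.59. Under the authors' scaling 1 was higher and 12 lower than in eWAT, beside 2.11% and 64.4% of all genes. Against iWAT 1 was then higher and 7 lower, beside 2.12% and 58%. Of the genes called higher, 1 of the 4 and 4 of the 7 turned direction there.

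For comparison, lipid droplet protein genes had a region within 50 kb for 7 of 12, with median log2 ratios of BAT of 0.06 against eWAT and 0.62 against iWAT. Cidec, a relative of Cidea in lipid droplet fusion, had 166, 111 and 127 and was called higher in BAT than in eWAT, at 1.01 (0.51 to 1.48). Bscl2, Plin4 and Plin2 had the highest means over the 3 libraries, with 102, 105 and 74.7 in BAT. G0s2 had a ratio of 0.82 (0.15 to 1.44), Plin4 of 0.64 (0.10 to 1.15), Bscl2 of −0.05 (−0.58 to 0.45) and Hilpda of −0.38 (−1.37 to 0.48), and Plin1 had the lowest ratio, at −0.93 (−3.26 to 0.71). PPAR and RXR receptor genes had a region in 5 of 6 cases, with medians of −0.31 and 0.15. There, Ppara, which the thermogenic list holds too, the receptor of fatty acid oxidation, was called higher in BAT than in eWAT, with 72.4, 49.9 and 80.2 and a log2 ratio of 1.54 (0.88 to 2.17). Pparg had 0.15 (−0.07 to 0.37), Rxrg −0.31 (−1.05 to 0.35), Ppard −0.81 (−1.90 to 0.11) and Rxra, which was not called, an interval of −1.75 to −0.33. The authors' scaling changes every BAT over eWAT ratio by −1.39, which turns the direction of Cidec, G0s2, Plin4, Plin2 and Pparg. The differences between these lists and the 8 members were not tested.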

How the data were processed

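The deposited tables hold a signal per region and library, in the column layout of HOMER per the file headers. No source states the scaling, and that these are reads scaled by the authors with 1 factor per library was read from the values. The deposited peak score was 0 throughout and was not used. Per the submitters' processing notes, STAR, HOMER and the build mm9 were used, but no versions are named. Peak calling settings are not stated. The lists were joined by region identifier, with repeated regions dropped. Over the joined set, 100% of the values were whole multiples of 1 step per library within 0.1 read, and that step was taken as 1 read. Ratios have exact Clopper-Pearson 95% intervals on these reads, for counting error only. A side with 0 reads was set to a floor of 3 reads. No test was run, since each depot has 1 library. Regions above 2-fold with the interval on that side were called. The calling code was tested on simulated data. Named regions are the strongest and the nearest of each gene, those listed in BAT or in all 3 depots and those called. Of each list, the 3 highest sums and the 3 highest and lowest ratios are named. The motif letters were added after the data were seen. The members and lists, markers of 6 cell types included, were chosen with earlier results of these data known. Promoter windows for 5 of the 8 genes were in the RefSeq table of GRCm38.p6 used here. Alternatives changed the scaling, distance, fold and lists. Python 3.11.15, pandas, NumPy, SciPy and matplotlib were used.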

Additional observations from a re-analysis of the deposited data

How the results depend on the processing

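No paired analysis was possible because each depot has 1 library. The number of called regions of the 8 genes moved with the scaling, the distance, the fold and the use of an interval. For BAT over eWAT, 5 regions were called (5 higher, 0 lower), against 12 with the authors' own scaling (1 higher, 11 lower). Scaled to the regions listed in all 3 depots, with a median log2 ratio of −0.75, it was 4 (3 higher, 1 lower). The count was 8 when scaled to all regions, 2 within 10 kb, 10 within 100 kb, 21 at all distances, 3 at 3-fold and 15 at 2-fold with no interval. For BAT over iWAT, 8 were called (8 higher, 0 lower), against 10 with the authors' scaling (2 higher, 8 lower), where the direction turned. Scaled to the regions common to all depots, with a median log2 ratio of −0.66, the count was 5 (3 higher, 2 lower). It was 3 within 10 kb, 13 within 100 kb, 23 at all distances, 5 at 3-fold and 16 with no interval. For iWAT over eWAT, 5 were called (3 higher, 2 lower), against 7 with the authors' scaling (2 higher, 5 lower). The count was 0 within 10 kb, 12 at all distances, 10 at 1.5-fold and 3 at 3-fold. Called genes numbered 1 for BAT over eWAT (1 higher, 0 lower), against 3 with the authors' scaling (0 higher, 3 lower). The count was 2 with common regions (1 higher, 1 lower), 2 within 10 kb, 3 within 100 kb and 2 at all distances. Called genes numbered 3 for BAT over iWAT (3 higher, 0 lower), against 3 with the authors' scaling (1 higher, 2 lower) and 1 with common regions. For iWAT over eWAT 1 gene was called, against 0 within 10 kb, 0 within 100 kb and 0 at all distances. Members with a listed region fell from 8 to 3 in eWAT and from 6 to 3 in iWAT with lists of equal size, and from 6 to 3 in BAT within 10 kb. With an input of 0 taken as 0, an alternative chosen after seeing the data, 16 BAT regions rather than 10 reached 10 times the input. Of 141 single-gene ratios under alternatives, 97 stayed within the interval of the main value, 42 moved outside it and 2 called ones turned direction. These 2 were Ppargc1b for BAT over iWAT, to −0.13 with the authors' scaling, and Esrrg for iWAT over eWAT, to 0.69 at all distances. Part of the 97 was fixed in advance. Ucp1, Cidea, Elovl3, Ppargc1b and Esrra have no region beyond 50 kb, so wider distances could not change them. Scaling to all regions hardly differed from the main scaling, and all 24 of its ratios stayed. With the authors' scaling 10 stayed, 13 moved and 1 turned. Since 1 BAT read is worth 2.77 scaled reads, ratios on few BAT reads have wide intervals, as at the Ppargc1a region with 1 BAT read (−9.29 to −1.47).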
